A study of Mus musculus with 27 samples.

Results

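A set of 85 genes named for proteins of the cytoplasmic ribosome was described across mouse intestinal adenomas and normal intestinal epithelium. The genes were chosen by symbol alone, as Rpl or Rps followed by a number with an optional suffix, together with Rplp0, Rplp1, Rplp2 and Rpsa. Symbols that name a pseudogene with -ps and the Rps6 kinases were left out. Of the 85, 80 are annotated as protein-coding and 5, kept because their symbols fit the rule, as processed pseudogenes. The deposited tables hold 17687 genes in all. The first table, called the transgene table below, lists 83 of the 85 members among 17440 genes. The second, called the knockout table, lists all 85 among 15176 genes. Rps3a3 and Rpl32l are the 2 members found in the knockout table alone. All listed members passed the filter on low values.

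The study asked what the transcription factor Fosl1 contributes to intestinal tumours driven by the Braf mutation V637E, the mouse counterpart of a human cancer mutation. The first group of adenomas carried a tetracycline-switchable Fosl1 transgene with Vil-CreERT2 (Tet-o-Fosl1;Vil-CreERT2/+) and no Braf allele, and the mice ate chow with doxycycline at 2000 mg/kg from 1 week after tamoxifen. The second carried BrafV637E/+;Vil-CreERT2/+;Fosl1lox/lox, so that Cre deletes Fosl1, and is called the Braf Fosl1 knockout. The third carried BrafV637E/+;Vil-CreERT2/+ and is called Braf. Controls were normal intestinal epithelium from mice given sunflower seed oil without tamoxifen, and the treatment notes name these mice by the Braf genotype, so that they may carry the uninduced allele. Vil-CreERT2 is a tamoxifen-activated Cre driven by the villin promoter, which is active in intestinal epithelium. The 6-week-old mice received 5 mg of tamoxifen, or oil alone, by gavage on 2 days. The labels name no tetracycline transactivator for the transgenic mice. They number each adenoma as a mouse, and do not say whether the control samples came from separate mice. The p-values therefore measure the spread between these samples.

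The transgene table held 3 Fosl1 transgene adenomas, 3 Braf adenomas and 3 controls, at 12.4 to 15.5 M reads each, as counts scaled to the library total (CPM). The knockout table held 6 Braf Fosl1 knockout adenomas, 5 Braf adenomas and 6 controls, at an estimated 3.93 to 7.13 M reads each. Its normalised counts were multiplied by a single factor so that they stand on about the same scale as CPM, and are called nCPM. The tables were normalised separately and share no library, so tests stayed within a table. Fosl1 stood at 3.62, 3.70 and 3.30 CPM in the transgene adenomas and at 4.15, 4.27 and 5.31 CPM in the Braf adenomas, and was listed at 0 in all 3 controls. It has no row in the knockout table, so the knockout itself could not be checked there.

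The ribosome reads messenger RNA on its small subunit and joins amino acids on its large subunit. Each subunit holds many different proteins, nearly all present as 1 copy per ribosome, and the P stalk of the large subunit brings in elongation factors. Messenger RNAs for these proteins begin with a run of pyrimidines, the TOP motif, through which mTORC1 signalling sets their translation. In the intestine, ribosome production is a hallmark of the dividing crypt cells.

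The start regions of some members are shown to set those with a run of pyrimidines at the start site beside those without one. Not all of these members are discussed below. The regions are RefSeq sequences of GRCm38.p6, on the strand of the gene, covering 30 bases before the annotated start and the first 20 bases from it. Capitals mark the longest unbroken run of 6 or more C or T that reaches within 5 bases of the start. The windows are chr4:86857348-86857397 (minus strand) for Rps6, chr7:45128726-45128775 (minus) for Rpl13a, chr7:4792935-4792984 (plus) for Rpl28, chr17:33955646-33955695 (minus) for Rps18 and chr2:39005112-39005161 (minus) for Rpl35.
Rps6: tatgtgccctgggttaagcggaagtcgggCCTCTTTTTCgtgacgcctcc
Rpl13a: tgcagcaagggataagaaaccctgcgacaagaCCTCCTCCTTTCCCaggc
Rpl28: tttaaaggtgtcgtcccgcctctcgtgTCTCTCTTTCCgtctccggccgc
Rps18: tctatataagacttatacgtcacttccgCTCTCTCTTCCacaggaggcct
Rpl35: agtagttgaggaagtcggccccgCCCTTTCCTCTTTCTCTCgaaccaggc
The windows without such a run are chrX:74270786-74270835 (plus) for Rpl10 and chrX:102189372-102189421 (minus) for Rps4x.
Rpl10: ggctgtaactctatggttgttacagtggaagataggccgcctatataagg
Rps4x: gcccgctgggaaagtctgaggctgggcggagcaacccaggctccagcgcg

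RefSeq start regions were given for 61 of the 85 members. A pyrimidine run at the start stood in 32 of the 61 (52.5%), against 23.0% of the 27025 genes with such a region. The letters CCGGAAG, searched on both strands of the whole region from 250 bases before the start to 50 bases from it, stood in 25 members (41.0%) and in 9.93% of all genes. The letters CACGTG stood in 6 members (9.84%) and in 8.09% of all genes, and TATAAA stood in 8 members (13.1%) and in 15.7% of all genes. No motif contains another, though the reverse complement of CCGGAAG holds pyrimidines that can overlap a run. The annotated starts may lie some bases from those used in the tissue, and no match says only that the letters are not in the window.

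In adenomas of all 3 genotypes the ribosomal protein genes took a larger share of the library than in normal epithelium. The members summed to 7.66, 8.77 and 8.19% of the total in the Fosl1 transgene adenomas, and to 9.40, 8.34 and 10.3% in the Braf adenomas of the same table, against 3.49, 3.45 and 4.58% in the controls. Those of the knockout table summed to between 3.88 and 8.16% in the Braf Fosl1 knockout adenomas (median 5.86%), and to 6.55, 6.94, 7.63, 4.57 and 7.25% in the Braf adenomas. The 6 controls there lay between 1.47 and 3.15% (median 2.46%). In both tables every adenoma library lay above every control library, and the adenoma groups overlapped each other.

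**Figure D1:**
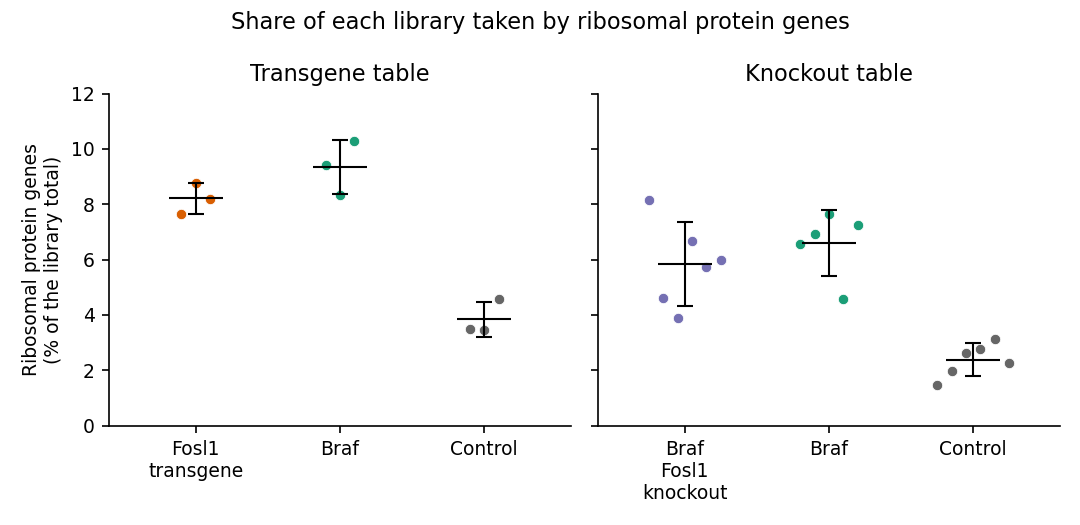
Percent of each library's total taken by the ribosomal protein genes, with 1 point per library, the group mean as a long line and the SD as bars. Means were 8.21 ± 0.553% in Fosl1 transgene, 9.34 ± 0.969% in Braf and 3.84 ± 0.641% in control libraries of the transgene table (SD, n = 3 each), and 5.84 ± 1.52% in knockout (n = 6), 6.59 ± 1.20% in Braf (n = 5) and 2.38 ± 0.600% in control libraries (n = 6) of the knockout table.

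Mitochondrially encoded genes also took a variable share of these libraries. It was 2.83 to 4.67% in transgene, 2.21 to 2.38% in Braf and 4.21 to 4.68% in control libraries, and 5.24 to 28.5% in knockout, 3.51 to 8.61% in Braf and 7.45 to 23.4% in control libraries of the knockout table. With those genes left out of the total, the members took 4.27 to 9.21% in knockout libraries and 4.79 to 7.91% in Braf libraries, against 1.92 to 3.54% in control libraries, still without overlap with the controls.

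Nearly every member rose in each adenoma group against control. By limma on log2(value + 1), with Benjamini-Hochberg adjustment over all tested genes and a threshold of 0.05, 79 of 83 members were higher and 0 lower in Fosl1 transgene adenomas than in controls, where 46.7% of all tested genes were higher and 17.5% lower. In Braf adenomas of the same table, 78 of 83 were higher and 0 lower (33.1 and 18.0% of all genes). At an unadjusted p under 0.05, and by edgeR and DESeq2, 0 members were lower in either comparison. The knockout table gave a similar picture: 78 of 85 members were higher and 1 lower in Braf Fosl1 knockout adenomas than in controls (37.4 and 19.4%), and 81 were higher and 1 lower in Braf adenomas than in controls (45.3 and 16.2%). Increases of at least 2-fold that passed the threshold were seen in 56, 73, 63 and 77 members in these 4 comparisons, against 29.1, 18.2, 18.9 and 25.1% of all tested genes. Every adenoma library lay above every control library for 81 members in transgene and 80 in Braf adenomas, and for 53 in knockout and 74 in Braf adenomas of the knockout table (50.6, 38.1, 21.0 and 32.3% of all genes). Every adenoma library lay below every control library for 0, 0, 1 and 0 members (20.1, 20.9, 12.2 and 11.5%).

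The median member changed by 1.12 on the log2(value + 1) scale in transgene adenomas, by 1.31 and 1.46 in Braf adenomas of the transgene and knockout tables, and by 1.22 in knockout adenomas. The median of all tested genes stood at 0.47, 0.27, 0.42 and 0.27 in the same order, so the median gene also lay above 0 under the deposited scaling. After TMM rescaling, which brought the median of all genes to between 0.00 and 0.08, the median member changed by 0.67, 1.04, 0.99 and 0.91. The members that were higher then numbered 67, 78, 77 and 75 in that order, against 31.6, 25.0, 29.1 and 28.3% of all genes, and 0, 0, 1 and 2 were lower (28.5, 24.9, 29.4 and 29.7%). Comparisons within a table share libraries.

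**Figure D2:**
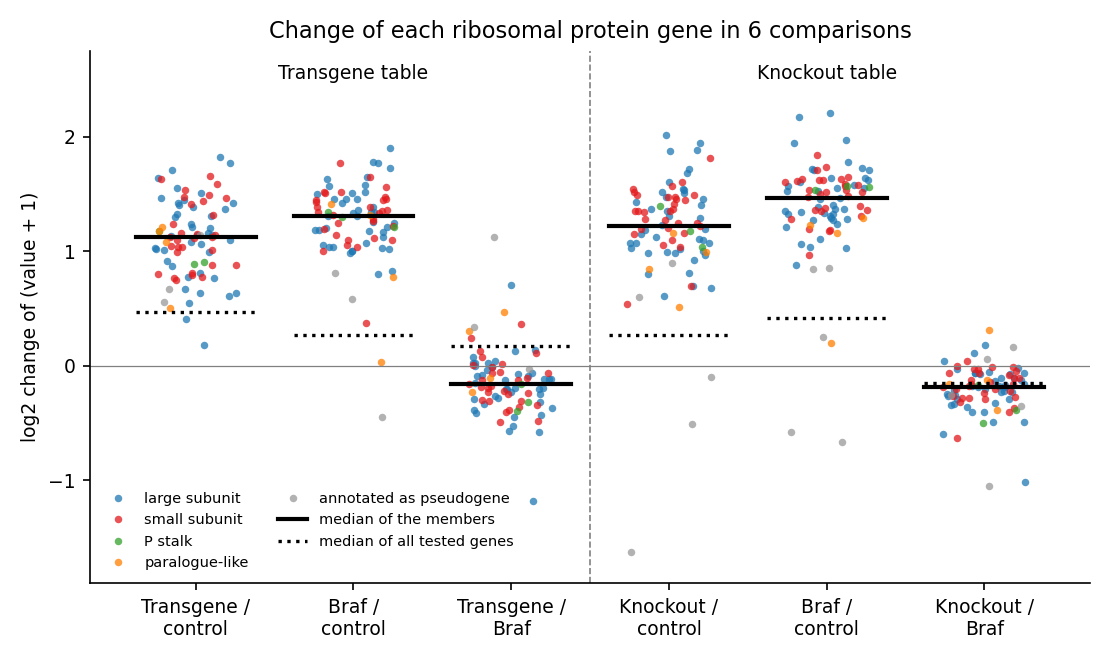
The log2 change of (CPM or nCPM + 1) of every member in the 6 comparisons, with 1 point per gene coloured by role, the median of the members as a solid bar and the median of all tested genes as a dotted bar. The members lie around a median of 1.12 to 1.46 in the 4 comparisons with control and around -0.16 and -0.18 in the 2 comparisons with Braf adenomas.

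Genes for proteins of both subunits rose. All values are RNA levels, and no protein was measured. Of the 42 large subunit genes 41 were higher in transgene adenomas and 42 in Braf adenomas of the transgene table, and 39 in knockout and 42 in Braf adenomas of the knockout table. Of the 31 small subunit genes 31, 30, 31 and 31 were higher in the same 4 comparisons. Median changes of the large subunit were 1.14, 1.31, 1.19 and 1.43 on the log2 scale, and those of the small subunit 1.12, 1.34, 1.35 and 1.52. Small subunit genes made up between 40.5 and 44.6% of the members' summed signal over all 26 libraries.

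Rps6, the small subunit protein that S6 kinases phosphorylate in growing cells, lies at chr4:86854660-86857412 (GRCm38, minus strand). It stood at 856, 897 and 827 CPM in transgene adenomas and at 963, 904 and 1058 CPM in Braf adenomas, against 437, 418 and 560 CPM in controls. Its level in the knockout table ranged from 406 to 896 nCPM in knockout adenomas (median 636) and stood at 639, 729, 766, 517 and 911 nCPM in Braf adenomas, against 149 to 341 nCPM in controls (median 279). Every adenoma library was above every control library. By limma the change against control was 0.88 (SE 0.15, adjusted p = 0.00046) in transgene and 1.06 (SE 0.15, adjusted p = 0.000179) in Braf adenomas, and 1.28 (SE 0.22, adjusted p = 7.39e-05) in knockout and 1.48 (SE 0.24, adjusted p = 2.17e-05) in Braf adenomas of the knockout table.

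Rpsa, a small subunit protein also known as a laminin receptor, changed by 1.14 and 1.33 in transgene and Braf adenomas and by 1.47 and 1.58 in knockout and Braf adenomas, past the threshold each time. Rps27a, which is made as a fusion with ubiquitin, changed by 1.66, 1.65, 1.44 and 1.74 in the same order. Rps18 of the small subunit stood at 1379, 1738 and 1582 CPM in transgene adenomas and 2245, 1662 and 2289 CPM in Braf adenomas, against 644, 588 and 973 CPM in controls. No adenoma library of that table reached down to a control library, and the changes were 1.12 and 1.51 there and 1.81 and 1.84 in knockout and Braf adenomas of the knockout table.

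The P stalk genes rose in all 4 comparisons with control. Rplp0, the stalk base, stood at 3196, 3899 and 3397 CPM in transgene adenomas and at 4705, 4668 and 3766 CPM in Braf adenomas, against 1741, 1667 and 2303 CPM in controls. The change was 0.89 (SE 0.17, adjusted p = 0.00109 by limma) in transgene and 1.21 (SE 0.17, adjusted p = 0.000199) in Braf adenomas, and 1.04 and 1.54 in knockout and Braf adenomas of the knockout table. Rplp1, which pairs with Rplp2 on the stalk, stood at 1838, 2152 and 2091 CPM in transgene and 2638, 2478 and 2867 CPM in Braf adenomas, against 1104, 1043 and 1085 CPM in controls. The 3 groups did not overlap for Rplp1, yet the difference of -0.39 between transgene and Braf adenomas missed the threshold by limma (adjusted p = 0.059) and passed it after TMM rescaling, at -0.58 (adjusted p = 0.0145). Rplp2 changed by 1.18, 1.34, 1.18 and 1.56 in the 4 comparisons with control, past the threshold in each.

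Rpl5 and Rpl11, large subunit proteins that also bind Mdm2 and thereby link ribosome assembly to p53, were higher in every comparison with control. Rpl5 changed by 0.99 in transgene and 1.18 in Braf adenomas, and by 0.80 in knockout and 1.21 in Braf adenomas of the knockout table. The corresponding values of Rpl11 were 1.42, 1.45, 1.35 and 1.53.

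Rpl34, a large subunit protein, stood at 819, 981 and 900 CPM in transgene adenomas and at 1074, 614 and 1297 CPM in Braf adenomas, against 211, 281 and 276 CPM in controls. Its changes of 1.82 (SE 0.25, adjusted p = 0.000135 by limma) and 1.90 (SE 0.25, adjusted p = 0.000126) were the largest of any member in the transgene table. Across the knockout table it ranged from 272 to 737 nCPM in knockout adenomas (median 443), against 54.8 to 289 nCPM in controls (median 140), so the highest control library passed the lowest adenoma library. The change there was 1.69 in knockout and 1.71 in Braf adenomas.

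Rpl7, a large subunit protein encoded at chr1:16101295-16104662 (minus strand), stood at 1597, 1870 and 1543 CPM in transgene adenomas and 1892, 2252 and 2189 CPM in Braf adenomas, against 572, 513 and 776 CPM in controls. The knockout table had it between 1136 and 2240 nCPM in knockout adenomas (median 1515) and at 1674, 1904, 2001, 1252 and 2422 nCPM in Braf adenomas, against 272 to 540 nCPM in controls (median 443). The groups stayed apart in both tables. Changes by limma were 1.44 (SE 0.17, adjusted p = 6.15e-05) and 1.78 (SE 0.17, adjusted p = 1.67e-05) in transgene and Braf adenomas, and 1.95 (SE 0.22, adjusted p = 3.26e-07) and 2.17 (SE 0.23, adjusted p = 1.36e-07) in knockout and Braf adenomas.

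Rpl13a, a large subunit protein known in human cells for holding back translation of inflammatory messages, lies at chr7:45125558-45128761 (minus strand). It stood at 33.1, 27.4 and 38.6 CPM in transgene and 32.0, 25.4 and 39.1 CPM in Braf adenomas, against 6.94, 7.32 and 13.6 CPM in controls. In the knockout table it ranged from 33.9 to 72.6 nCPM in knockout adenomas (median 48.0) and from 27.5 to 62.0 nCPM in Braf adenomas (median 49.3), against 7.15 to 15.4 nCPM in controls (median 11.2). Adenoma and control libraries did not overlap, and the changes were 1.77 (adjusted p = 0.000212 by limma), 1.73 (adjusted p = 0.000323), 2.01 (adjusted p = 1.14e-07) and 1.97 (adjusted p = 2.83e-07) in the order given. Its level was far below that of most members, and 55.2% of the 100-base windows of its transcript also occur in other genes. Whether reads were lost to copies was not tested.

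**Figure D3:**
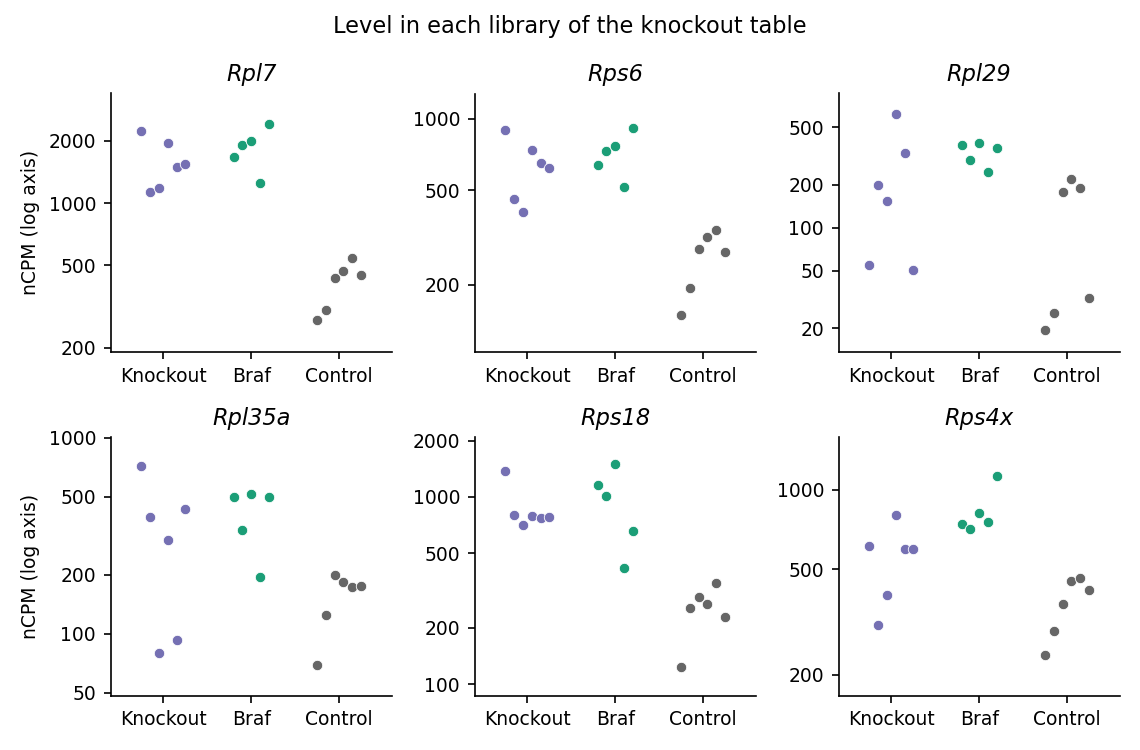
Level of 6 members in each library of the knockout table, in nCPM on a log axis, with 1 point per library in the order knockout, Braf, control. Rpl7 and Rps6 separate adenomas from controls in every library, whereas Rpl29 spans 50.5 to 616 nCPM in knockout and 19.4 to 217 nCPM in control libraries.

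Some members fell outside the common pattern. Rpl29, of the large subunit, stood at 786, 811 and 708 CPM in transgene and 859, 494 and 908 CPM in Braf adenomas, against 221, 436 and 298 CPM in controls. Among knockout table libraries it ranged from 50.5 to 616 nCPM in knockout adenomas (median 176) and stood at 376, 298, 387, 246 and 359 nCPM in Braf adenomas, against 19.4 to 217 nCPM in controls (median 105). Knockout adenomas 1 and 7 and controls 4, 5 and 9 were the low ones. The change in knockout adenomas was 1.18 (SE 0.72) and missed the threshold (adjusted p = 0.177 by limma), and that in Braf adenomas was 2.20 (SE 0.76, adjusted p = 0.0205) and was 1.73 (adjusted p = 0.0544) after TMM rescaling. Without the 3 libraries of highest mitochondrial share it was 1.39 and missed the threshold. Of its transcript windows 50.3% recur in 25 other genes.

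Rpl35a, a large subunit protein mutated in some human Diamond-Blackfan anaemia, stood at 423, 457 and 486 CPM in transgene and at 263, 235 and 346 CPM in Braf adenomas, against 115, 104 and 219 CPM in controls. It was the member with the largest positive difference between transgene and Braf adenomas above the level of 5 CPM, 0.71, which missed the threshold (adjusted p = 0.0814 by limma). Rpl35a passed it by limma with a replicate block (adjusted p = 0.0318) and in a fit of these 2 groups alone (adjusted p = 0.0361). In the knockout table it ranged from 80.2 to 722 nCPM in knockout adenomas (median 348) and from 194 to 520 nCPM in Braf adenomas (median 501), against 69.0 to 199 nCPM in controls (median 174). Knockout adenomas 3 and 6 lay within the controls, and the change of 0.81 missed the threshold (adjusted p = 0.168), while Braf adenomas were higher by 1.40 (adjusted p = 0.0254). Without knockout 3 the knockout change passed the threshold, at 1.14, and the Braf call was lost after TMM rescaling, at 0.93 (adjusted p = 0.121), and without Braf 4, 6 or 8 or control 4.

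Relative to the median member of the same library, the SD of log2 values within groups was 0.128 in the transgene table and 0.172 in the knockout table for the median of the 79 members with a mean of at least 5. As deposited the same figures were 0.202 and 0.400, so that members moved up and down together between libraries of a group. The widest relative spread in the knockout table was that of Rpl29 (1.19), Rpl35a (0.707), Rpl34 (0.512) and Rps2 (0.451). In the transgene table it was that of Rpl23a (0.424) and Rpl29 (0.381).

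Paralogues were compared next. Rpl22, an RNA-binding large subunit protein, rose by 1.55 and 1.52 in transgene and Braf adenomas and by 1.51 and 1.62 in knockout and Braf adenomas. Its paralogue Rpl22l1 stood far lower, at 16.3, 21.0 and 27.5 CPM in transgene and 24.9, 20.7 and 30.4 CPM in Braf adenomas, against 10.2, 7.08 and 9.39 CPM in controls. It rose by 1.18, 1.41, 1.16 and 1.29, so both paralogues were higher in all 4 comparisons. Rps27 rose by 1.54, 1.52, 1.09 and 1.36 and its p53-responsive paralogue Rps27l by 1.21, 1.31, 0.99 and 1.16. Rpl7l1, a paralogue of Rpl7, rose by 1.08, 0.77, 0.84 and 1.23, less than Rpl7 in value in each comparison. Rpl36a rose by 1.42, 1.57, 1.60 and 1.73, whereas Rpl36al, at or below 2.39 nCPM in every library of the knockout table, changed by 0.50, 0.03, 0.51 and 0.20 with no call. Rpl39 rose by 1.37, 1.58, 1.55 and 1.72. Rpl3l, Rpl10l and Rpl39l were not analysed here.

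Rps4x, the X-linked small subunit protein, lies at chrX:102184941-102189394 (minus strand) and rose by 0.80 and 1.00 in transgene and Braf adenomas and by 0.54 and 1.17 in knockout and Braf adenomas. The call in transgene adenomas was lost after TMM rescaling, at 0.35 (adjusted p = 0.084), after median-ratio rescaling, at 0.34 (adjusted p = 0.0712), and by edgeR, at 0.35 (adjusted p = 0.0936). In the knockout table it ranged from 309 to 801 nCPM in knockout adenomas (median 597) and from 711 to 1128 nCPM in Braf adenomas (median 755), against 238 to 466 nCPM in controls (median 393). The knockout adenomas overlapped both other groups, the call against control was narrow (adjusted p = 0.0443 by limma) and it was lost after TMM rescaling, at 0.23 (adjusted p = 0.26), and without knockout 1, 5, 6 or 7 or control 4, 5 or 6. Rps4l, annotated as a transcribed processed pseudogene on chromosome 6, went the other way in knockout adenomas. It stood at 0.0638 to 1.10 nCPM there (median 0.649) and at 1.77, 2.13, 8.40, 2.07 and 0.249 nCPM in Braf adenomas, against 1.55 to 14.8 nCPM in controls (median 2.91), a change of -1.63 against control (SE 0.42, adjusted p = 0.00292 by limma). Knockout and control libraries did not overlap, although all levels were low.

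The other member that fell against control was Rpl32l, an annotated processed pseudogene on chromosome 10. It averaged 1.17 ± 0.432 nCPM in Braf adenomas (SD, n = 5) and 2.52 ± 1.11 nCPM in controls (SD, n = 6), and its change was -0.67 (SE 0.28, adjusted p = 0.042 by limma). That call was lost without Braf 4, 7 or 8 or control 4, 5 or 8. Of the members annotated as pseudogenes, 1 of 3 was higher in transgene and 0 of 3 in Braf adenomas of the transgene table, and 2 of 5 were higher in each comparison with control in the knockout table. Copies of ribosomal protein genes complicate the counting of many members. All 13 protein-coding members with fewer than 10% of windows shared with another gene were higher in all 4 comparisons with control, at median changes of 1.10, 1.31, 1.20 and 1.57. Of the 27 with at least 50% of windows shared, 25, 26, 25 and 26 were higher, at medians of 1.14, 1.36, 1.31 and 1.50.

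Between Fosl1 transgene and Braf adenomas few members passed the threshold. Of the 83, 1 was higher and 4 were lower in transgene adenomas, against 14.5 and 4.72% of all tested genes, and 63 of the 83 changes were negative in sign. The median member differed by -0.16, while the median gene differed by 0.17. After TMM rescaling, with the median gene at 0.01, 1 was higher and 21 were lower (11.3 and 8.15% of all genes) and the median member differed by -0.35. On the recovered reads edgeR gave 0 higher and 14 lower (7.49 and 6.63% of all genes), and DESeq2 gave 1 and 35 (11.4 and 11.7%). Transgene and Braf libraries did not overlap for 5 members that lay higher and 25 that lay lower (27.9 and 10.5% of all genes). The 95% interval of the difference stayed within 2-fold either way for 78 members, and the share of all genes with such an interval was not counted.

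The 4 lower members belong to the large subunit, as do 42 of the 83 members. After TMM rescaling the lower members were 13 of the large subunit, 7 of the small subunit and 1 of the P stalk. Rpl23a, which sits by the exit of the peptide tunnel, stood at 17.4, 22.0 and 28.7 CPM in transgene adenomas, against 73.9, 52.3 and 35.7 CPM in Braf adenomas, with controls at 21.0, 19.8 and 18.1 CPM. The transgene adenomas lay at the level of the controls and below every Braf adenoma, a difference of -1.18 from Braf (95% interval -1.75 to -0.61, adjusted p = 0.0104 by limma) and of 0.18 from control (adjusted p = 0.567). Of its transcript windows 80.0% recur in 7 other genes. In the knockout table Rpl23a was higher than in controls in knockout (0.70, adjusted p = 0.0414) and in Braf adenomas (0.88, adjusted p = 0.0149). Both calls were lost after TMM rescaling, at 0.40 and 0.42, the Braf call also without Braf 6 and the knockout call without knockout 1, 2, 5, 6 or 7 or control 4, 5 or 8.

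Rows named as ribosomal protein pseudogenes, taken as a percent of the members and those rows together, summed to 0.267 to 0.303% in transgene adenomas and 0.372 to 0.807% in Braf adenomas, against 0.816 to 1.03% in controls. The knockout table gave shares that were 0.490 to 0.791% in knockout, 0.343 to 1.00% in Braf and 0.356 to 0.815% in control libraries. Their part in the Rpl23a difference was not tested.

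Rpl37 stood at 474, 453 and 475 CPM in transgene adenomas, against 727, 746 and 614 CPM in Braf adenomas, a difference of -0.57 (SE 0.13, adjusted p = 0.0149 by limma). Rpl36 stood at 513, 596 and 556 CPM in transgene adenomas, against 956, 707 and 838 CPM in Braf adenomas, a difference of -0.58 (SE 0.16, adjusted p = 0.0286). Rpl32 stood at 610, 681 and 621 CPM in transgene adenomas, against 990, 798 and 983 CPM in Braf adenomas, a difference of -0.53 (SE 0.15, adjusted p = 0.036). All 3 are large subunit proteins, and no transgene library reached a Braf library in any of them. Against control in transgene adenomas Rpl32 changed by 0.81, Rpl37 by 0.64 and Rpl36 by 0.41, all past the threshold. After TMM rescaling the call for Rpl37 was lost, at 0.19, and Rpl36 stood at -0.04. The call for Rpl36 against control was also lost without any single transgene adenoma and without control 1 or 2. The calls for Rpl36 and Rpl32 were lost without any single transgene adenoma and without Braf 1 or 3, and that for Rpl37 was lost without transgene 2.

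Rps4l was the 1 higher member, at 3.94, 1.55 and 3.10 CPM in transgene adenomas against 1.05, 0.886 and 0.295 CPM in Braf adenomas. The groups did not overlap, and the difference was 1.12 (SE 0.31, adjusted p = 0.0298 by limma). That call was lost without transgene 1 or 3 or Braf 3, and edgeR did not make it. By limma it was also lost with a replicate block (adjusted p = 0.0503) and in a fit of these 2 groups alone (adjusted p = 0.0607).

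Between Braf Fosl1 knockout and Braf adenomas limma called 0 of the 85 members higher and 0 lower, where 0.0473 and 0.371% of all tested genes were called. TMM rescaling gave 0 and 0 as well (0.0608 and 0.169% of all genes), and at an unadjusted p under 0.05 there were 0 higher and 2 lower, Rps4x and Rps4l. The median member differed by -0.18 and the median gene by -0.15, so both lay below 0. After TMM rescaling they stood at -0.02 and 0.00. Libraries of the 2 groups did not overlap for 0 members in either direction (0.101 and 1.12% of all genes). For 77 members the 95% interval lay within 2-fold either way. The shares of all genes with such an interval, or with an unadjusted p under 0.05, were not counted. Rps4x had the smallest unadjusted p, with a difference of -0.63 (95% interval -1.12 to -0.15, adjusted p = 0.219 by limma). Rplp0 differed by -0.50 (SE 0.24, adjusted p = 0.348), Rpl7 by -0.23 (interval -0.71 to 0.25) and Rps6 by -0.21 (interval -0.70 to 0.28). For Rpl29 the interval ran from -2.64 to 0.60, too wide to place the knockout adenomas beside the Braf adenomas.

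The Braf comparison was made in each table with separate Braf and control libraries. Of the 83 members common to the tables, 78 were higher in both. Across these members the 2 changes correlated with Pearson's r = 0.841 and Spearman's rho = 0.739, a description over genes that share libraries within a table. Over the 80 protein-coding members the values were 0.747 and 0.709. In the authors' deposited table of genes more than 2-fold up in Braf over control, with a p limit of their own, 76 of the 85 members stand among 3290 symbols. That is 89.4% of the members, against 21.7% of all genes of the knockout table that stand on the same deposited list. Their deposited list for Braf against knockout, with 210 symbols, holds 0 of the members and 1.38% of all genes of the knockout table. Both lists were deposited together with the knockout table, so they may rest on the same libraries.

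**Figure D4:**
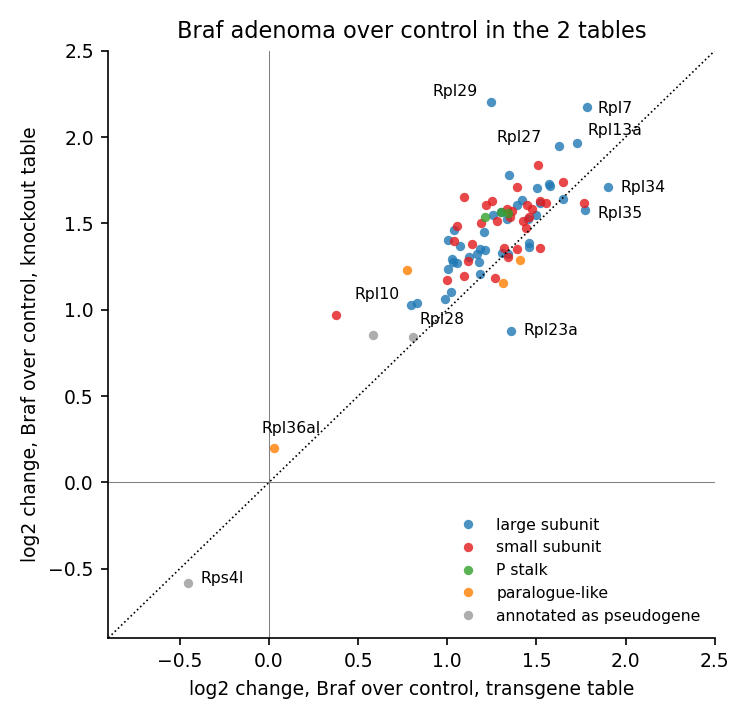
Log2 change of each of the 83 shared members in Braf adenomas over control, in the transgene table (x axis) and in the knockout table (y axis), coloured by role, with a dotted line of equality. Most points lie between 0.8 and 2.0 on both axes, and Rps4l and Rpl36al sit near or below 0 on both.

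Few members were called apart from the common rise. To set them against each other, each library was rescaled to the members' own total, a scaling chosen after seeing the data. In Braf adenomas of the transgene table, 7 members lay above and 5 below that total (9.26 and 61.8% of all genes), and in those of the knockout table, 3 above and 6 below (11.8 and 64.0%). Each count is a smaller share of the members than the share of all genes beside it, so the calls do not set the members apart. Rpl7, Rpl13a and Rpl27 were above it and Rpl10, Rpl28 and Rps4l below it in both tables.

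Rpl7 made up 2.04 ± 0.132% of the members' signal in transgene and 2.28 ± 0.366% in Braf adenomas, against 1.61 ± 0.107% in controls (SD, n = 3 each). Of the members' signal in the knockout table it made up 2.73 ± 0.225% in knockout (n = 6) and 2.80 ± 0.310% in Braf adenomas (n = 5), against 1.74 ± 0.152% in controls (n = 6). Its rise in Braf adenomas relative to the total was 0.49 (adjusted p = 0.0159 by limma) and 0.69 (adjusted p = 0.00139) in the 2 tables. Rpl27, a large subunit protein at chr11:101442298-101445529 (plus strand), made up 0.876% in transgene and 0.838% in Braf adenomas, against 0.660% in controls, and 0.887% in knockout and 0.817% in Braf adenomas, against 0.591% in controls of the knockout table. It rose by 0.34 (adjusted p = 0.0341) and 0.47 (adjusted p = 0.00991) relative to the total in Braf adenomas. Rpl13a rose by 0.52 (adjusted p = 0.0455) and 0.55 (adjusted p = 0.00379).

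Rpl10, a large subunit protein that joins late and is needed for the subunits to pair, lies at chrX:74270812-74273135 (plus strand). It stood at 912, 919 and 829 CPM in transgene and 983, 1139 and 938 CPM in Braf adenomas, against 496, 511 and 735 CPM in controls, and was thus higher in every adenoma library. The rise of 0.63 in transgene adenomas was 0.18 after TMM rescaling and missed the threshold. As a share of the members it was lower, at 1.09 ± 0.0938% in transgene and 1.11 ± 0.232% in Braf adenomas against 1.50 ± 0.0937% in controls (SD, n = 3 each), and at 1.08 ± 0.177% in knockout and 1.21 ± 0.200% in Braf adenomas against 1.64 ± 0.122% in controls of the knockout table. In Braf adenomas it fell relative to the total, by limma at -0.46 (adjusted p = 0.0347) and -0.45 (adjusted p = 0.0337) in the 2 tables. Rpl28, a large subunit protein at chr7:4792874-4795066 (plus strand), made up 1.23 ± 0.181% in transgene and 1.29 ± 0.183% in Braf adenomas, against 1.80 ± 0.134% in controls, and 1.56 ± 0.289% in knockout and 1.41 ± 0.157% in Braf adenomas, against 1.94 ± 0.229% in controls. It fell relative to the total, at -0.49 (adjusted p = 0.0224) and -0.46 (adjusted p = 0.0327).

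**Figure D5:**
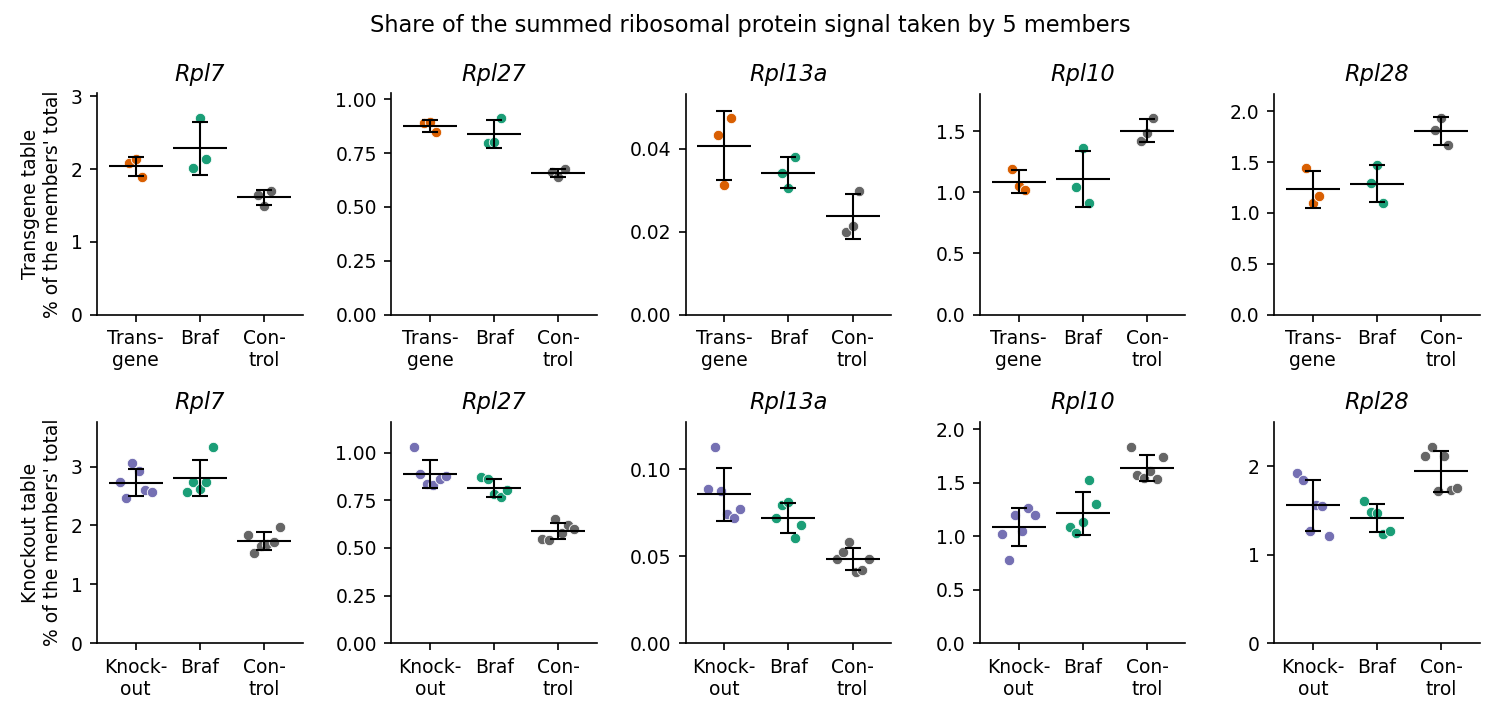
Percent of the members' summed signal taken by 5 members, in the transgene table (upper row) and the knockout table (lower row), with 1 point per library, the mean as a long line and the SD as bars. Rpl7, Rpl27 and Rpl13a take a larger share in adenomas than in controls and Rpl10 and Rpl28 a smaller one, in both tables.

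In transgene adenomas 10 members lay above and 9 below the total against control (18.6 and 49.1% of all genes), and in knockout adenomas 6 above and 10 below (10.8 and 64.4%). Between transgene and Braf adenomas 3 lay above, Rpl7l1 by 0.49, Rpl35a by 0.89 and Rps4l by 1.08, and 1 below, Rpl23a by -0.99 (22.9 and 2.39% of all genes). Between knockout and Braf adenomas 0 lay above and 0 below by limma (0.00675 and 0.0338% of all genes), and 0 above and 2 below, Rps4x and Rps4l, at an unadjusted p under 0.05. Single libraries decided many of the calls in Braf adenomas. In the transgene table, without Braf 1 or Braf 3, 2 members remained above, and the calls of Rpl10, Rpl13a, Rpl27 and Rpl28 were lost without Braf 1, Braf 3, control 1 or control 2. That of Rpl10 was lost without control 3 as well, and that of Rpl7 without Braf 2 or control 2. In the knockout table the call of Rpl10 was lost without Braf 4, 5 or 6 or control 4 or 9, and that of Rpl28 without Braf 7 or 8 or control 5 or 7, while Rpl7, Rpl13a, Rpl27 and Rps4l passed with any 1 library left out.

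By the runs marked at the annotated starts, members with and without one changed by similar amounts. Rpl13a and Rpl28, above and below the members' total, both carry a marked run. Rpl27, above that total, and Rpl10, below it, have none. Since the annotated starts may lie some bases from those used, a member without a marked run may still begin with pyrimidines. The comparison therefore cannot show whether the motif itself goes with the change. Members with a run and members without one changed by medians of 1.14 and 1.14 in transgene adenomas, 1.31 and 1.33 in Braf adenomas, 1.20 and 1.35 in knockout adenomas and 1.43 and 1.51 in Braf adenomas of the knockout table.

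Other genes of ribosome production were mostly higher in adenomas as well. Of all tested genes 46.7% were higher in transgene, 33.1% in Braf, 37.4% in knockout and 45.3% in Braf adenomas of the knockout table than in controls, or 31.6, 25.0, 28.3 and 29.1% after TMM rescaling, and counts below keep this order. Of 52 ribosome assembly factors 43 were higher and 0 lower in transgene, 44 and 1 in Braf, 46 and 1 in knockout, and 48 and 0 in Braf adenomas of the knockout table. After TMM rescaling 30, 32, 40 and 40 were higher and 2, 1, 1 and 1 lower. Npm1, the nucleolar chaperone nucleophosmin, rose by 1.95, 1.68, 2.10 and 2.18, and Nhp2, of the particles that guide RNA pseudouridylation, by 1.76, 1.62, 1.81 and 2.12. Of 16 tested genes of the RNA polymerase I machinery, which makes ribosomal RNA, 12, 11, 12 and 13 were higher and 1 was lower each time, among the higher ones the subunit Polr1c at 1.02, 1.32, 1.15 and 1.38. TMM rescaling left 7, 8, 9 and 8 higher and 2, 1, 1 and 1 lower. Of 31 initiation factors 27, 28, 25 and 28 were higher and 1, 0, 0 and 0 lower, or 16, 22, 22 and 20 higher and 2, 1, 1 and 0 lower after TMM rescaling. Of 7 elongation factors and companions 6, 7, 6 and 7 were higher, or 4, 6, 5 and 6 after TMM rescaling, and 0 lower by either scaling. Among the elongation factors Eef2, which moves the ribosome along, and Tpt1 were lower in transgene than in Braf adenomas, by -0.59 (adjusted p = 0.0433 by limma) and -0.52 (adjusted p = 0.0271). The call for Eef2 was lost without transgene 1, 2 or 3 or Braf 1 or 2, and that for Tpt1 without transgene 1 or 3 or Braf 1 or 3. Rack1, a small subunit protein whose symbol falls outside the rule, rose by 0.57, 1.03, 1.02 and 1.38. Its call in transgene adenomas was lost after TMM rescaling, at 0.12, and without transgene 2 or control 1 or 2.

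Genes for mitochondrial ribosomal proteins lie in the nucleus and serve a separate ribosome. These genes were higher in 50, 38, 41 and 50 of 77 and lower in 3, 1, 2 and 1, with medians of 0.63, 0.51, 0.47 and 0.61. After TMM rescaling 17, 20, 26 and 23 were higher and 6, 5, 7 and 6 lower, with medians of 0.19, 0.24, 0.18 and 0.14. Known regulators were mixed. Of 19 genes for TOP messenger and mTORC1 control 6 were higher and 7 lower in transgene, 7 and 3 in Braf, 7 and 2 in knockout, and 9 and 3 in Braf adenomas of the knockout table. After TMM rescaling 4 were higher each time, and 9, 6, 6 and 6 lower. Ddit4, an inhibitor of mTORC1, rose by 3.01, 3.01, 2.39 and 2.86, and Eif4ebp1, a translation repressor under mTORC1, by 1.50, 1.96, 2.16 and 2.02. Rragd, a GTPase that brings mTORC1 to lysosomes, fell, at -3.55, -5.87, -4.54 and -5.05, as did Sesn1, an inhibitor of mTORC1, at -3.22, -3.69, -3.46 and -3.31.

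Of 9 genes of the Myc family, whose proteins drive ribosome production, 5, 6, 4 and 4 were higher and 3, 2, 1 and 1 lower, or 3, 6, 3 and 3 higher and 3, 3, 2 and 2 lower after TMM rescaling. Myc rose by 1.32 in transgene and 2.28 in Braf adenomas and by 2.57 and 2.62 in knockout and Braf adenomas of the knockout table. It was lower in transgene than in Braf adenomas, by -0.96 (adjusted p = 0.0458 by limma), a call lost without transgene 1 or 2 or Braf 1, 2 or 3. Mycl was lower as well, by -2.12 (adjusted p = 0.00171). Of the ribosomal S6 kinases of the ERK pathway 3 of 6 and 1 of 6 were higher in transgene and Braf adenomas, and 1 of 4 in each comparison with control in the knockout table, while 1, 2, 0 and 0 were lower. TMM rescaling gave 2, 1, 1 and 1 higher and 3, 2, 1 and 2 lower. Genes linking ribosomal proteins to p53 were higher in 4, 6, 5 and 6 of 9 and lower in 0, or higher in 2, 4, 2 and 3 and lower in 2, 0, 2 and 2 after TMM rescaling. Proliferation genes were higher in 14, 9, 10 and 15 of 18, or in 6, 3, 8 and 12 after TMM rescaling, and lower in 0 by either scaling.

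The cell types in the samples differed as well. Of 8 enterocyte markers 8 and 7 were lower in transgene and Braf adenomas, and 6 and 7 in knockout and Braf adenomas. Their summed level was 940 to 2157 CPM in transgene and 678 to 2687 CPM in Braf adenomas, against 19998 to 28223 CPM in controls, and 1598 to 12695 nCPM in knockout and 453 to 15527 nCPM in Braf adenomas, against 25291 to 36117 nCPM in controls. Fibroblast markers summed to 602 to 1184 CPM in transgene and 18.5 to 167 CPM in Braf adenomas, against 6.59 to 18.3 CPM in controls, with no marker at 0 in a whole group, and 5, 3, 5 and 5 of 5 were higher in the 4 comparisons. All 4 endothelial markers were higher in each, and macrophage markers in 5 and 3 of 5 and in 4 and 4 of 4. The part of these shifts in the ribosomal protein changes was not tested. In samples of mixed cells, fewer cells of a type and less RNA per cell cannot be told apart.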

How the data were processed

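RNA from intestinal epithelium and adenomas was sequenced, per the labels' protocols, from libraries made with TruSeq v2 or with a stranded kit after rRNA depletion. Which library had which kit is not given in the sources used here, nor are the counting step and its strand setting. The submitters' processing notes name fastp, STAR, limma and GRCm38. The deposited CPM values are whole reads per library total, and all of them came out whole within a tolerance of 0.02. The second table holds the authors' normalised counts, a signal brought to a common library size, which was multiplied by 0.158533 to give nCPM. In it whole reads were recovered for 16.5 to 100% of values, so its depths are estimates, and no count test was run on it. The authors' other deposited columns list gene symbols past their thresholds. In the 2 tables, 12 and 1 columns of samples that carry no grouped label were not used, in the second table an adenoma whose labels disagree on its genotype. A repeated gene ID was dropped. Braf adenoma 8 has no number in its label and was numbered last.

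Genes needed 1 CPM in 3 libraries, or 1 nCPM in 5, which left 15173 and 14806. Log2(value + 1) was fitted with limma 3.58.1 (R 4.3.3; trend and robust), as 3 group means per table, with Benjamini-Hochberg adjustment over all tested genes and a threshold of 0.05. A fold change on this scale understates the change of low genes. Alternatives were TMM and median-ratio rescaling, other pseudocounts and filters, edgeR 4.0.16 and DESeq2 1.42.0 on the recovered reads, leaving out each library, and a replicate block. On simulated data limma recovered 84% of 2-fold changes in the transgene table (14900 genes) and 96% in the knockout table (14718 genes). The simulation covered transgene or knockout against control alone. Its genes varied independently at a single fixed dispersion, whereas the members moved together between libraries, so these shares need not hold for the members. Shared sequence was counted as windows of 100 bases found in another gene of the GRCm38 annotation. Named members were the 5 largest changes each way among called members with a mean of at least 5 in a compared group, and members named for their role; other lists gave up to 4 genes of smallest adjusted p. Members outside that rule were named after their values were seen, as were those in the comparisons with the members' total. The members and lists were chosen with earlier results of these data known. A gene list outside the members is not reported here.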

Additional observations from a re-analysis of the deposited data

Results flagged for a closer look

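Among 81 groups of 5 or 6 libraries, 10 held a library far from the others by Dixon's criterion, which chance alone meets in about 1 in 20 groups. Knockout adenoma 1 stood apart as the highest of its group for 3 members: Rpl17 at 2170 nCPM (others 1133 to 1366), Rpl36a at 822 nCPM (others 378 to 542) and Rps18 at 1368 nCPM (others 707 to 798). Braf adenoma 7 was the lowest of its group for Rpl17, at 860 nCPM (others 1290 to 1399), and for Rpl27, at 349 nCPM (others 568 to 598). Braf adenoma 8 was the highest for Rpl7l1, at 137 nCPM (others 103 to 113), and for Rps4x, at 1128 nCPM (others 711 to 819). The pseudogene Rps4l was highest in Braf adenoma 6, at 8.40 nCPM (others 0.249 to 2.13), and in control 8, at 14.8 nCPM (others 1.55 to 4.30). Mitochondrially encoded genes took 28.5% of knockout adenoma 2, against 5.24 to 11.4% in the other knockout adenomas.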

How the results depend on the processing

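The counts of higher members against control held within 1.5 times under every alternative that was run except rescaling to the members' total, under which 10, 7, 6 and 3 members lay above it. Leaving out 1 library at a time they ranged from 77 to 79 in transgene and 78 to 80 in Braf adenomas of the transgene table, and from 75 to 81 in knockout and 79 to 81 in Braf adenomas of the knockout table. In transgene against Braf adenomas the higher count was 0 under a filter of 5 CPM and by edgeR and 0 to 1 with 1 library left out. The lower count was 21 after TMM and 25 after median-ratio rescaling, 14 by edgeR and 35 by DESeq2, and 1 to 5 with 1 library left out. In knockout adenomas against control the lower count was 0 under a filter of 5 nCPM, 2 after TMM or median-ratio rescaling, 2 without knockout 1 and 2 together, and 1 to 2 with 1 library left out. In Braf adenomas against control of the knockout table it was 0 under a filter of 5 nCPM, 0 after rescaling without the members, 0 when the 3 libraries richest in mitochondrial reads were left out, and 0 to 2 with 1 library left out. The change of Nle1, an assembly factor, in transgene adenomas turned to -0.0045 by edgeR and -0.016 by DESeq2, and that of Fau in Braf adenomas of the knockout table to -0.083 after TMM and -0.13 after median-ratio rescaling. The rise of Rpl36 in transgene adenomas turned to -0.044 after TMM and -0.051 after median-ratio rescaling, to -0.042 by edgeR and to -0.054 by DESeq2. The cause of these shifts was not tested. The depth limits what can be said of members near 1 CPM, such as Rps4l, Rpl36al and Rpl32l.

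Deviations of libraries with the same replicate number correlated at -0.18 to 0.37. Without those of differently numbered libraries beside them, these values cannot show whether the numbers pair the libraries. With the replicate block the higher and lower counts were 78 and 0 in transgene and 78 and 0 in Braf adenomas against control, 1 and 4 between them, 76 and 2 in knockout and 79 and 0 in Braf adenomas of the knockout table, and 0 and 0 between knockout and Braf adenomas. The 1 higher member between transgene and Braf adenomas was then Rpl35a (adjusted p = 0.0318 by limma), while Rps4l missed the threshold (adjusted p = 0.0503). In the knockout table the block fit left out Braf adenoma 8. Knockout adenomas 1, 2 and 3 and controls 8 and 9 had no partner of the same number there. They therefore added nothing to the comparisons of that fit.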
